A study of Schizosaccharomyces pombe with 4 samples.

Results

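Genes for acid phosphatases, phosphate transporters and glycerophosphate enzymes were followed on expression arrays of fission yeast, Schizosaccharomyces pombe, in wild-type cells and in cells that lack red2. An array gene was taken as a member when its description held the words acid phosphatase, phosphate permease, inorganic phosphate transport or glycerophosph, and features described with the word phosphatidic were left out. This gave 13 of the 4997 array genes: 4 acid phosphatases, 6 features of inorganic phosphate transport and 3 matched by glycerophosph, while phosphate permease matched 0. One of these, a phosphatidylglycerophosphate synthase, makes a lipid precursor and has no part in phosphate uptake; it was kept because the wording of its description matches. No member overlapped another array feature.

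The wild-type group was strain FY12806 and the deletion group strain SP744, with 2 arrays each. Both strains grew logarithmically at 30 °C in rich yeast extract medium with glucose and adenine, so no phosphate starvation was applied, and no other allele or agent is named for either group. Total RNA was labelled with Cy3 and hybridised to 1-colour NimbleGen arrays on which each gene has 2 blocks of values. Here a level is the log2 of the deposited intensity, averaged over both blocks, and a difference is the deletion mean minus the wild-type mean of these levels.

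Acid phosphatases are secreted or cell wall enzymes that free phosphate from organic compounds outside the cell, and transporters of the major facilitator superfamily (MFS) carry the freed phosphate through the plasma membrane. In fission yeast the best known pair, the acid phosphatase gene pho1 and the transporter gene pho84, is held down when phosphate is plentiful, and transcription of long non-coding RNAs that start upstream of each gene takes part in that repression. Glycerophosphodiester phosphodiesterases release glycerol phosphate from the breakdown products of phospholipids and so feed the same phosphate supply. The RNA called prt or nc-pho1, which starts upstream of pho1, is known as a target of the nuclear RNA elimination machinery that also removes meiotic messages.

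In the reference gene table (assembly ASM294v3), pho84 and pho1 are next to each other among protein-coding genes of chromosome II, nc-pho1 overlaps pho1 and prt2 overlaps pho84. The table ties none of these symbols to an array gene, so no value is given for the non-coding RNAs. All array features carry the type CDS (coding sequence), although some are described as pseudogenes or degraded elements. Members are therefore called by their descriptions, with a letter where descriptions are the same or both name a yeast pho88 homologue. Coordinates are those of the deposited tables; their build is not given.

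Arrays of the same group correlated across all genes with r = 0.996 to 0.997, against 0.934 to 0.945 between groups; genes are not independent replicates. Median intensities ran from 21232 to 22158 over the 4 arrays. The number of arrays limits the precision. No label states that replicate arrays are of separate cultures, so each p-value reflects only how far replicate arrays differ, and that spread may be technical. The array codes in the column names share a number within each genotype and differ between genotypes; what that number stands for is not stated, and any batch it marks cannot be told apart from genotype. Deletion replicate 2 carries a label that mentions red3, while its other labels give red2. As red2 is tied to no array gene here, the deletion was not checked on the targeted gene. The lowest difference of any array gene was -9.93, and whether that gene is red2 was not tested.

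As a set, the phosphate genes did not move one way. Among the 13 members, 3 rose and 4 fell, and the other 6 missed the threshold (limma adjusted p under 0.05, two-sided, by the Benjamini-Hochberg method over all array genes), while 34.0% of all array genes were higher and 29.8% lower by the same rule, 63.8% in all. The groups did not overlap for 9 of 13 members, against 84.6% of all array genes. The median difference was -0.03 for the members and 0.01 for all genes, and the median absolute difference was 0.21 against 0.26. These counts lie near those of the array as a whole or below them. The largest differences among the members were those of a single transporter, which rose 1.99-fold, and of a glycerophosphodiesterase and both pho88 homologues, which fell. A larger absolute difference was found for 5.36% of all array genes in the case of the transporter, but for 20.6% in that of the glycerophosphodiesterase and for 25.5% and 28.6% in those of pho88 homologues A and B. No member was at least 2-fold apart between groups, where 5.26% of all array genes were.

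**Figure D1:**
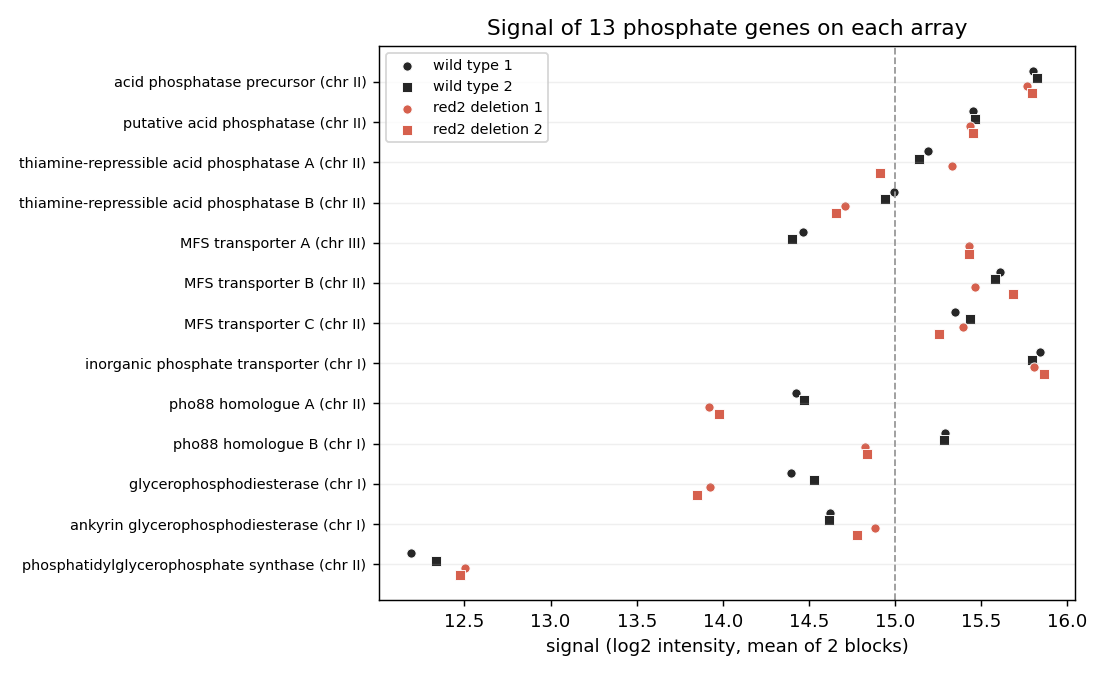
Signal of each of the 13 phosphate genes (rows) on each of the 4 arrays, as log2 intensity averaged over 2 blocks; black points are wild type, red points the red2 deletion, circles replicate 1 and squares replicate 2, and the dashed line marks a level of 15. MFS transporter A is the only row in which the deletion arrays lie near 15.43 and the wild-type arrays near 14.4, and the 4 arrays of the acid phosphatase precursor all lie between 15.77 and 15.83.

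Among the acid phosphatases, 1 of 4 fell and 3 did not pass. The gene described simply as acid phosphatase precursor (chromosome II, 4406635 to 4407996) stood at 15.80 and 15.83 in wild-type cells, and at 15.77 and 15.79 without red2. Both deletion arrays were just below both wild-type arrays, by less than the standard error of the difference. The difference was -0.03 ± 0.05 (SE, 2 arrays per group; limma adjusted p = 0.564), with a 95% confidence interval of the ratio of deletion to wild type from 0.900 to 1.06. In intensities, the 2 blocks of this gene read 58898 and 55364 on wild-type array 1 and 54196 and 57294 on deletion array 1. The highest level of any gene in wild type was 15.98, so a rise of this gene by more than 1.12-fold would have left the range that wild-type signals cover.

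The putative acid phosphatase (chromosome II, 1115712 to 1117100) gave 15.45 and 15.47 in wild-type cells, and 15.43 and 15.45 without red2. The 4 arrays lay within 0.04 of each other, and the difference was -0.02 ± 0.05 (limma adjusted p = 0.777). The interval of its ratio ran from 0.912 to 1.07.

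A pair of genes is described as thiamine-repressible acid phosphatase precursors, enzymes whose synthesis is shut off when thiamine, vitamin B1, is supplied. Gene A (chromosome II, 365116 to 366507) read 15.19 and 15.14 in wild-type cells, but 15.33 and 14.92 without red2, so the deletion arrays lay on either side of the wild-type arrays. The spread of 0.42 between the deletion arrays was the widest of any member in either group, and the difference of -0.04 ± 0.13 did not pass (limma adjusted p = 0.802). Its sign was set by 1 array: without red2 deletion replicate 2 it was 0.17 (adjusted p = 0.0371), and without red2 deletion replicate 1 it was -0.25 (adjusted p = 0.00979).

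Thiamine-repressible acid phosphatase B (chromosome II, 2215722 to 2217113) had arrays that agreed better. It stood at 14.996 and 14.94 in wild-type cells, and at 14.71 and 14.66 without red2, with no overlap. The gene fell by 0.29 ± 0.05 on the log2 scale, to 0.820 times the wild-type signal (limma adjusted p = 0.00404). With the first block alone the call was lost (-0.23, adjusted p = 0.0701). Whether genes A and B differ in their response was not tested.

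Of the 4 members described as phosphate transporters without a mention of pho88, 1 rose and 3 did not pass. Homologue B of pho88, whose description also names a probable inorganic phosphate transporter, fell and is given below. MFS transporter A (chromosome III, 828546 to 830297) stood at 14.47 and 14.40 in wild type and at 15.43 on both deletion arrays. The groups lay far apart relative to their spread of 0.06 and 0.003. In intensities, the blocks read 23463 and 21837 on wild-type array 1, and 45069 and 43150 on deletion array 1. The level rose by 1.00 ± 0.05 on the log2 scale, or 1.99-fold with a 95% interval from 1.83 to 2.17 (limma adjusted p = 6.21e-05). Both blocks gave the rise, at 1.05 and 0.94. The deletion level lies above 15, a range in which differences were small across the whole array.

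MFS transporter B (chromosome II, 54002 to 55723) gave 15.61 and 15.58 in wild-type cells, and 15.47 and 15.69 without red2. The deletion arrays again bracketed the wild-type arrays, and the difference was -0.02 ± 0.08 (limma adjusted p = 0.880). MFS transporter C (chromosome II, 4403330 to 4404152) read 15.35 and 15.44 in wild-type cells, and 15.39 and 15.25 without red2, a difference of -0.07 ± 0.07 (adjusted p = 0.403). Its array feature spans 823 bp, against 1680 to 1752 bp for MFS transporters A and B and the chromosome I transporter described next. The inorganic phosphate transporter of chromosome I (4324102 to 4325781) stood at 15.84 and 15.79 in wild-type cells, and at 15.81 and 15.86 without red2, a difference of 0.02 ± 0.05 (adjusted p = 0.791). For these 3 genes the groups overlapped, and the 95% intervals of the ratio ran from 0.863 to 1.13 for B, 0.849 to 1.07 for C and 0.927 to 1.10 for the chromosome I gene. The range of wild-type signals ended 1.31-fold, 1.499-fold and 1.12-fold above their wild-type levels.

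**Figure D2:**
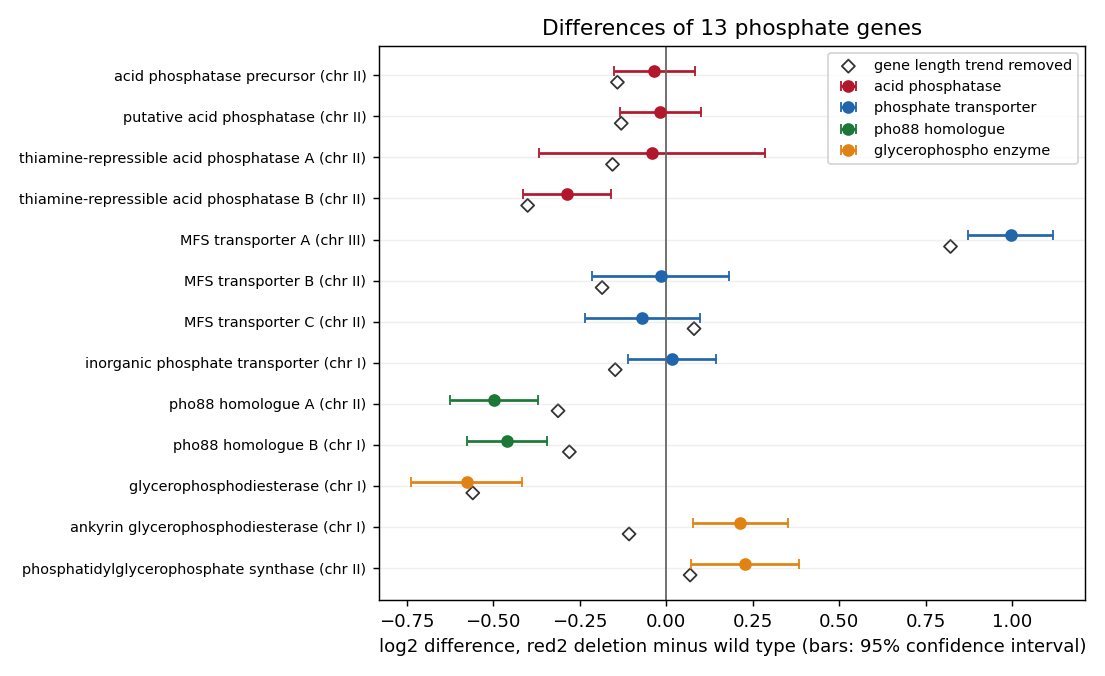
Difference between the red2 deletion and wild type on the log2 scale for the 13 phosphate genes (rows), coloured by role, with bars for the 95% confidence interval of limma (2 arrays per group); open diamonds give the difference after the gene length trend was removed. MFS transporter A lies at 1.00, both pho88 homologues and the glycerophosphodiesterase lie between -0.46 and -0.58, and the diamond of the ankyrin glycerophosphodiesterase lies on the other side of 0.

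MFS transporter C and the acid phosphatase precursor are next to each other on the array's map of chromosome II, 2482 bp apart, and neither passed. The genes that flank this pair, looked up after their values were seen, both rose. A hypothetical protein 707 bp to the left of transporter C stood at 13.04 and 12.97 in wild-type cells, and at 14.60 and 14.52 without red2, a rise of 1.55 ± 0.06 on the log2 scale (limma adjusted p = 2.53e-05). Another hypothetical protein, 4159 bp to the right of the acid phosphatase, went from 7.74 and 7.45 to 9.10 and 9.26 (adjusted p = 0.000121), but lies near the bottom of the scale, so no fold is given. Within 20 kb of the acid phosphatase, counted between gene centres and with both members, 6 of 12 array genes rose, 0 fell and 6 did not pass, beside 34.0% higher and 29.8% lower over the whole array. At an unadjusted p under 0.05 the number that fell was also 0. The other genes of this stretch lay lower on the scale than both members, at wild-type levels from 7.60 to 14.84.

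The surroundings of MFS transporter A looked different. Within 20 kb lay 16 array genes with transporter A itself counted, and 5 of them rose, 4 fell and 7 missed the threshold, which is near the shares over the whole array. Its direct neighbours stood at 0.02 ± 0.05 for a hypothetical protein to the left and -0.08 ± 0.07 for a very hypothetical protein 191 bp to the right (limma adjusted p = 0.787 and 0.344). Whether the loci differ from each other was not tested.

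**Figure D3:**
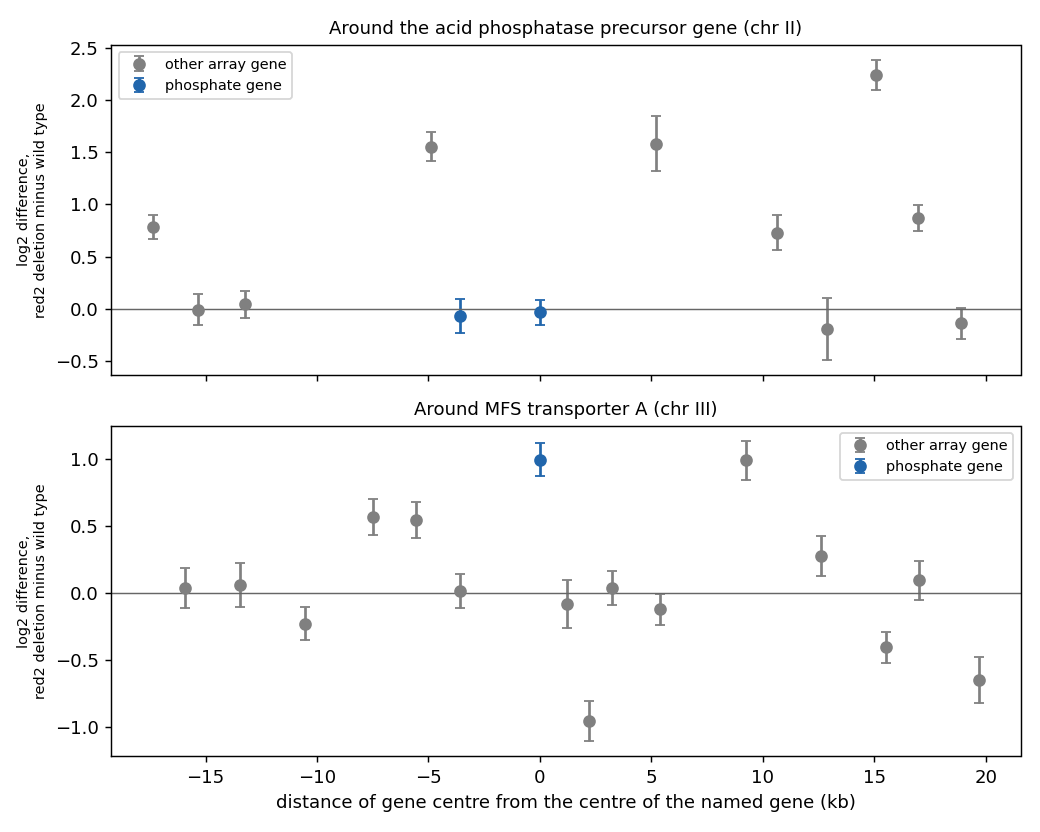
Difference between the red2 deletion and wild type on the log2 scale for array genes within 20 kb of the acid phosphatase precursor (top) and of MFS transporter A (bottom), against the distance between gene centres in kb; blue points are phosphate genes, grey points other array genes, and bars are 95% confidence intervals. In the top panel the phosphate genes lie at -0.07 and -0.03 between flanking genes that both rose (the one on the right lies near the bottom of the intensity scale, so its height is not read as a fold), and in the bottom panel MFS transporter A lies at 1.00 between neighbours at 0.02 and -0.08.

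The array genes outside the set whose pattern lay closest to that of MFS transporter A were taken by Euclidean distance over the 4 arrays, after the wild-type mean of each gene was subtracted. They were a putative RNA-binding protein of chromosome III (difference 1.00, distance 0.035), a hypothetical DNAJ domain protein (0.99, distance 0.044) and a putative flavoprotein of chromosome I (1.00, distance 0.048). The DNAJ gene (chromosome III, 837605 to 839701) is among the 16 genes around transporter A. Over 4 arrays this likeness says little more than that the size of the difference and the spread are alike.

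Both genes described as homologues of yeast pho88 fell. In budding yeast Pho88 is a membrane protein of the endoplasmic reticulum that was linked to phosphate transport. Homologue A (chromosome II, 2252471 to 2253203) stood at 14.42 and 14.47 in wild-type cells, and at 13.92 and 13.98 without red2, and homologue B (chromosome I, 3095140 to 3095890) stood at 15.29 on both wild-type arrays and at 14.82 and 14.84 in the deletion. In each case both deletion arrays lay below both wild-type arrays by several times the spread within a group. The level of A fell by 0.50 ± 0.05 (0.708 times wild type, limma adjusted p = 0.000453) and that of B by 0.46 ± 0.05 (0.728 times, adjusted p = 0.000442). Homologue B is the member that passed although its mean level lay above 15. Its blocks gave -0.58 and -0.34, those of A -0.43 and -0.56.

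The pho88 homologues span 733 and 751 bp, and short array genes were lower in the deletion as a class: the median difference was -0.20 over the 824 genes of 600 bp to under 900 bp and 0.22 over the 1401 genes of at least 1700 bp. With that trend removed the homologues stood at -0.31 (A, adjusted p = 0.00200) and -0.28 (B, adjusted p = 0.00298), so the differences became smaller by over 1.5 times and kept their calls.

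The 3 members matched by glycerophosph all passed, in different directions. The putative glycerophosphoryl diester phosphodiesterase (chromosome I, 5313807 to 5314873) had the largest fall of the set. It read 14.40 and 14.53 in wild-type cells, and 13.93 and 13.85 without red2, with no overlap. The level fell by 0.58 ± 0.07 to 0.671 times wild type (limma adjusted p = 0.000626), and with the length trend removed it stood at -0.56 (adjusted p = 0.000630).

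A longer gene with a glycerophosphoryl diester phosphodiesterase domain and ankyrin repeats (chromosome I, 3286282 to 3289512) is compared in its description with a regulator of the phosphate pathway of budding yeast. It stood at 14.62 and 14.61 in wild-type cells, and at 14.89 and 14.78 without red2. The level rose by 0.21 ± 0.06, or 1.16-fold (limma adjusted p = 0.0168). The direction turned with the length trend removed, to -0.11 (adjusted p = 0.108). The call was also lost without wild_type replicate 1 (adjusted p = 0.0695), without wild_type replicate 2 (0.0803), with quantile normalization (0.0573) and with the second block alone (0.0549).

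The phosphatidylglycerophosphate synthase (chromosome II, 2360831 to 2362472), which catalyses a step towards the mitochondrial lipid cardiolipin, lay lowest of the members on the intensity scale. It gave 12.19 and 12.33 in wild-type cells, and 12.50 and 12.47 without red2, which did not overlap. It rose by 0.23 ± 0.06, or 1.17-fold (limma adjusted p = 0.0216). Once the length trend was taken out it stood at 0.07 (adjusted p = 0.353), and the call was lost without wild_type replicate 1 (0.16, adjusted p = 0.175), without red2_deletion replicate 1 (0.0507), with arrays centred on their median (0.0534) and with the first block alone (0.0616). The count of members that rose was thus 1 without wild_type replicate 1, MFS transporter A alone.

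The position of the members on the intensity scale went with whether they passed. All 6 members with a mean level under 15 over the 4 arrays passed, and 1 of the 7 at 15 or over did. Across the array, 72.0% of the 1666 genes from 14 to 15 passed in either direction and 41.8% of the 1482 genes at 15 or over. The median absolute difference fell from 0.31 to 0.12 between these bins, and 0 of the 1482 genes were at least 2-fold apart, against 44 of the 1666 (17 higher and 27 lower). Sorted by wild-type level alone, 0 of 1462 genes at 15 or over were at least 2-fold higher in the deletion, and 11 were at least 2-fold lower. That 0 was fixed by the scale, because the highest intensity on any array lies less than 2-fold above a level of 15. The counts of higher and lower genes in this sorting therefore cannot be compared. The 7 members at 15 or over include the acid phosphatase precursor, pho88 homologue B and 3 of the 4 transporters described without pho88. Where a gene lies on this scale depends on its probes too, so the position is no measure of its abundance. The part of saturation in their small differences was not tested.

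**Figure D4:**
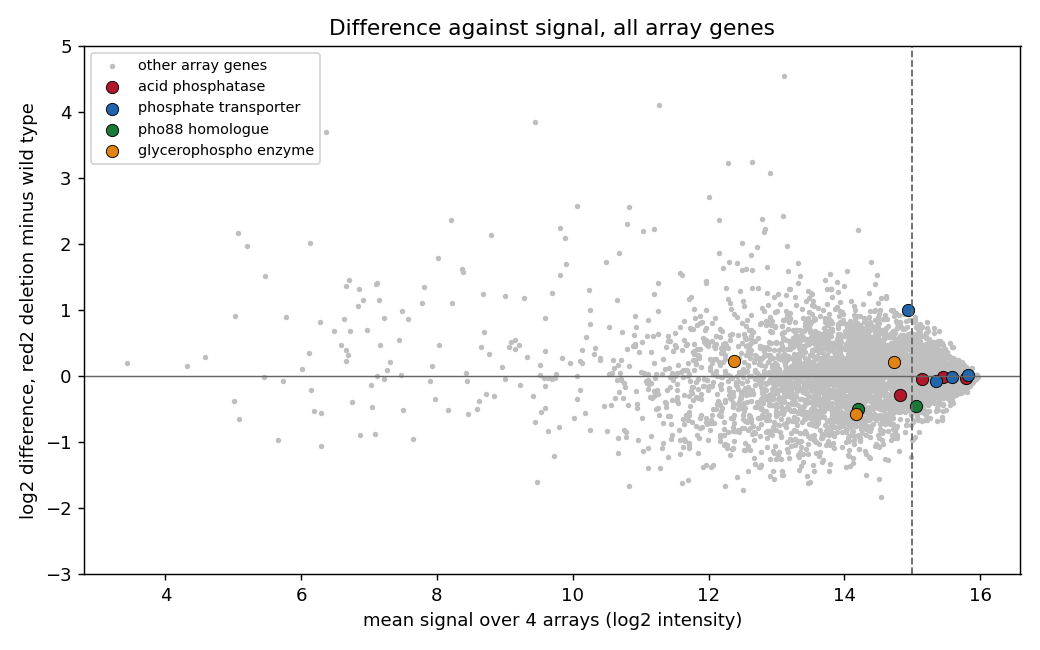
Difference between the red2 deletion and wild type (log2 scale) against the mean log2 intensity over the 4 arrays for all array genes (grey, 1 gene below the axis not drawn) and the 13 phosphate genes (coloured by role); the dashed line marks a level of 15. The cloud narrows to the right of the line, where 7 of the 13 members lie, and MFS transporter A sits at its upper edge just left of the line.

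Gene length also touched members outside the calls. After removal of its trend, the acid phosphatase precursor stood at -0.14 (limma adjusted p = 0.0397) and the chromosome I inorganic phosphate transporter at -0.15 (adjusted p = 0.0472), which would count both as lower. The set then had 1 member higher and 6 lower. The whole array moved the same way, to 1427 of 4997 genes higher and 1761 lower, from 1699 and 1487. MFS transporter A kept its call at 0.82 (adjusted p = 7.23e-05), as did thiamine-repressible acid phosphatase B at -0.40 (adjusted p = 0.000988).

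Genes of phosphate handling outside the set were found by further words in the descriptions, among them polyphosphate, alkaline phosphatase, phosphate carrier and Pho85. Of 6 such genes 4 rose, 0 fell and 2 did not pass, where 34.0% of all array genes were higher and 29.8% lower; at an unadjusted p under 0.05 the number that fell was also 0. Their median difference was 0.40, beside 0.01 for all array genes, and 0.17 beside -0.04 after removal of the length trend. Their median span of 2056 bp is long for this array, whose median is 1194 bp. The repressible alkaline phosphatase precursor, an enzyme that frees phosphate at alkaline pH, stood at 15.62 on both wild-type arrays and at 15.69 and 15.60 in the deletion (0.03 ± 0.05, limma adjusted p = 0.690). The mitochondrial phosphate carrier, which brings phosphate into mitochondria for ATP synthesis, gave -0.05 ± 0.05 (adjusted p = 0.393). Both of these lie above 15 on the scale.

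The genes that rose in this list do not transport phosphate. They were a putative inositol polyphosphate phosphatase of chromosome I (0.58 ± 0.05), a phosphatidylinositol-4-phosphate 5-kinase (0.49 ± 0.05) and a further inositol polyphosphate phosphatase family member of chromosome II (0.42 ± 0.05), which act on inositol phosphates or lipids, and a protein similar to the Pho85-associated cyclin Pcl6 of budding yeast (0.38 ± 0.05). The cyclin-like gene went from 13.21 on both wild-type arrays to 13.58 and 13.62. With the length trend removed it stood at 0.57 (limma adjusted p = 0.000166), while the others became smaller by over 1.5 times (0.25, 0.22 and 0.12), and the chromosome II phosphatase lost its call (adjusted p = 0.0775).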

How the data were processed

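The authors deposited intensity values on a linear scale. RMA, named without a version in the submitters' processing notes, was used to make them, and its steps are not described there. All 39976 values were exactly equal in the pair tables and in the table of 4 arrays. Values ran from 8.19 to 65028. Groups and replicate numbers were taken from sample titles.

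Intensities were turned to log2 and both blocks of a gene averaged, with no pseudocount, filter or further normalization. All 4997 genes entered lmFit and eBayes of limma 3.58.1 under R 4.3.3, with a single term for genotype, two-sided p-values, p adjusted across the whole array by Benjamini-Hochberg and called under 0.05. The fit was tested on simulated data. Intervals are limma's 95% confidence intervals.

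Members and lists were chosen with earlier results of these data known. Every member is named, with genes of the further list that passed, and 3 genes most alike the member with the largest difference. Neighbours, the other genes of the further list and the thiamine genes were added after their values were seen. Alternatives were other normalizations, filters, blocks, priors and thresholds, the replicate number as a block, removal of a loess trend (span 0.5) on log2 gene length, and each array left out in turn.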

Additional observations from a re-analysis of the deposited data

How the results depend on the processing

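Over 207 pairings of a member with an alternative, 170 left direction and call as they were. Part of these could not change direction: the thresholds, the replicate block, the priors and the filter on dim genes leave each difference as it is. Only the call could change there. A stricter threshold also cannot give a call to a member that had not passed. Of the 7 members that passed only the ankyrin glycerophosphodiesterase changed direction, with the length trend removed (-0.11). Requiring at least 2-fold left 136 genes higher and 127 lower in the whole array, 0 and 0 members, and 0 higher genes of the further phosphate list. Members higher were 1 with the length trend removed and 1 at a threshold of 0.01, and 1 to 4 with each array left out in turn. Over the whole array 1427 genes were higher with the length trend removed and 1338 at a threshold of 0.01. Without the dimmest 25% of genes the further list had 2 higher. That filter took out the chromosome II inositol polyphosphate phosphatase and the cyclin-like gene, so these were not fitted. The other genes of the list that rose kept their calls. With the replicate number as a block, the counts were 3 members higher and 4 lower and 1674 genes higher and 1466 lower. The deviations of same-numbered arrays correlated at -0.04 and those of arrays with crossed numbers at 0.04. With 2 arrays per group these values mirror each other by construction. They cannot tell whether same-numbered arrays shared any handling. Other changes of sign were in genes that did not pass. With the first block alone, thiamine-repressible acid phosphatase A stood at 0.032, MFS transporter B at 0.032, MFS transporter C at 0.023 and the alkaline phosphatase at -0.020. With the second block alone, the acid phosphatase precursor stood at 0.0064, the putative acid phosphatase at 0.0019 and the chromosome I transporter at -0.039. Quantile normalization gave 0.0094 for the acid phosphatase precursor, and centred arrays gave -0.039 for the chromosome I transporter and -0.029 for the alkaline phosphatase. With the length trend removed, MFS transporter C stood at 0.081, the chromosome I transporter at -0.15, the mitochondrial carrier at 0.039 and the alkaline phosphatase at -0.14. With each array left out in turn, thiamine-repressible acid phosphatase A ran from -0.25 to 0.17, MFS transporter B from -0.13 to 0.095, MFS transporter C from -0.14 to 0.00097, the chromosome I transporter from -0.010 to 0.044 and the alkaline phosphatase from -0.021 to 0.075. The cause of these changes was not tested. Where an arm kept 1 array, its spread was taken to equal that of the other arm.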

Other observations

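Since a pair of members is described as thiamine-repressible, the other array genes whose description holds the word thiamine were looked up after the members' values were known. Of 6 such genes 5 rose, 0 fell and 1 did not pass (limma adjusted p under 0.05), beside 34.0% higher and 29.8% lower over the whole array. Their median difference was 0.30, and 0.16 with the length trend removed; at an unadjusted p under 0.05 the number that fell was also 0. The gene for thi1, described as the regulatory protein of thiamine-repressible genes, read 14.35 and 14.28 in wild-type cells, and 14.90 and 14.93 without red2, and rose by 0.60 ± 0.05 (adjusted p = 0.000249). It stood at 0.57 with the length trend removed. Thiamine pyrophosphokinase, which makes the active cofactor, rose by 0.37 ± 0.05 (adjusted p = 0.00138), or by 0.21 after removal of the length trend (adjusted p = 0.0134). With the length trend removed 3 of the 6 were higher, beside 1427 of all 4997 array genes, whose median difference was then -0.04. Thiamine-repressible acid phosphatase B, by contrast, fell by 0.29, and gene A did not pass.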
